A study of Homo sapiens with 16 samples.

Results

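The de novo purine and pyrimidine enzymes are the genes that build nucleotide bases from small precursors. The 10 genes described here were taken by name from those 2 pathways: PPAT, GART, PFAS, PAICS, ADSL, ATIC and IMPDH2 on the purine side, and CAD, DHODH and CTPS1 on the pyrimidine side. All 10 were present among the 58735 genes of the count table, and all 10 passed the filter on low counts that left 17309 genes for testing. They had 235 to 12279 read counts in a library.

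The libraries came from SW620, an established line of human colorectal cancer cells, in bulk poly(A)-selected RNA-seq. One line carried a scramble short hairpin RNA as negative control (shScramble, here scramble), and the other a hairpin against ATF4 (shATF4), a transcription factor of the integrated stress response. Each line was left untreated (3 libraries), or received 5 µM 5-fluorouracil (5-FU) for 24 h (3 libraries) or 48 h (2 libraries). The study asked what ATF4 does in resistance of these cells to chemotherapy. The labels name 1 shATF4 line and do not say whether the hairpin lines were clones or pools, so hairpin and line cannot be told apart. They also do not say whether replicates were separate cultures, so the spread that the p-values measure is that among these libraries and may be technical.

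In purine synthesis PPAT commits phosphoribosyl pyrophosphate (PRPP) to the pathway. GART, PFAS, PAICS, ADSL and ATIC then assemble inosine monophosphate (IMP), and IMPDH2 turns IMP toward guanine nucleotides. In pyrimidine synthesis the multifunctional protein CAD makes dihydroorotate, the mitochondrial enzyme DHODH oxidises it to orotate, and CTPS1 makes CTP from UTP at the end of the route. 5-FU is a uracil analogue that cells convert into fluorinated nucleotides, which block thymidylate synthase and enter RNA and DNA. Proliferating tumour cells run both pathways, and MYC and ATF4 have been described as regulators of their genes.

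PPAT and PAICS lie head to head on chromosome 4, with 125 bases between the genes, and share a start region, which is why the PAICS window is printed first. The sequences are RefSeq promoter windows of the build GRCh38.p14, 300 bases around a transcript start. Of the 10 genes 8 had windows, 13 in all, and ADSL and IMPDH2 had none. The E-box CACGTG, the palindromic motif bound by MYC and MAX, was searched on both strands. It stood in 4 of the 13 windows, those of PPAT, PAICS, ATIC and DHODH, against 7.26% of all 35116 windows of this length. TGATGNAA, a form of the composite site bound by ATF4, was found in 0 of the 13 windows, against 3.62% of all windows on both strands. The CACGTG of PPAT and of PAICS is one and the same site, whose first base is 56435792 on chromosome 4, since the windows share 236 bases. A match describes letters only, and no binding was measured. Capitals mark CACGTG in the windows of PAICS (chr4:56435502-56435801, plus strand), ATIC (chr2:215311809-215312108, plus strand), DHODH (chr16:72008494-72008793, plus strand) and CAD (chr2:27217119-27217418, plus strand). CAD is printed because its values part from those of the other genes, and its window holds no CACGTG. The windows lie mostly upstream of the start: the CACGTG of PAICS, at +41, is close to the downstream end of its window. Bases farther downstream were not searched, so a CACGTG past the end of the CAD window would be missed.
PAICS: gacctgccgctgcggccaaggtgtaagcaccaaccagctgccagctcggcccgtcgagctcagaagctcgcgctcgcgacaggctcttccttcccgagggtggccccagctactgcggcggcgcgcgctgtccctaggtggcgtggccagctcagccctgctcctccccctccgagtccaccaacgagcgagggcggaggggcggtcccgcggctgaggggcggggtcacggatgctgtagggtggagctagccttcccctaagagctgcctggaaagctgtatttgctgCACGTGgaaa
ATIC: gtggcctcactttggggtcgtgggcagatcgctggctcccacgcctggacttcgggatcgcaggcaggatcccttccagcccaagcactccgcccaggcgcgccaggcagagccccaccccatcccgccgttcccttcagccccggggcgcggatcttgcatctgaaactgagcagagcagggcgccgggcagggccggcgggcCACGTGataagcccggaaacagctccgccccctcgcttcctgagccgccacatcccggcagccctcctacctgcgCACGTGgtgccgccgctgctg
DHODH: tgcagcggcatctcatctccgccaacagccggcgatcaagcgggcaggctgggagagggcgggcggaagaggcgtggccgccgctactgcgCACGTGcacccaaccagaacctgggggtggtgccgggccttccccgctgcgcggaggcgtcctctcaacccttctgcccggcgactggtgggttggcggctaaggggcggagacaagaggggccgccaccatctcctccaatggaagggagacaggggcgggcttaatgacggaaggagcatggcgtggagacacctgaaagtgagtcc
CAD: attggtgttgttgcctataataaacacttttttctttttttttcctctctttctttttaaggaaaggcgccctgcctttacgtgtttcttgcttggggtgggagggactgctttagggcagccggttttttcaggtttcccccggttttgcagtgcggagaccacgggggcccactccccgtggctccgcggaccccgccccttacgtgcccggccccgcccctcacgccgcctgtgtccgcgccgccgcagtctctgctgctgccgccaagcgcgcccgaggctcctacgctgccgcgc

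Library totals ran from 14571611 to 17824188 counts. ATF4 was lower in every shATF4 library than in every scramble library of the same treatment. The scramble libraries held 388, 364 and 384 CPM (counts scaled to library size with TMM factors) untreated, 270.1, 285 and 280.1 CPM at 24 h and 331 and 333 CPM at 48 h. The shATF4 libraries held 172, 169 and 179 CPM, 91.1, 109 and 130.4 CPM and 114 and 118 CPM at the same times. Of 9 colon epithelial markers 8 passed the filter on low counts, with summed levels of 6509.9 to 12470.0 CPM. Leukocyte markers summed to at most 1.41 CPM, endothelial markers to at most 13.8 CPM, and fibroblast markers to at most 63.9 CPM, with COL3A1 at 0 throughout. Replicate 2 of untreated scramble cells stood apart by mitochondrial mRNA (1.42% of counts, against 0.753% and 0.766% in its group). Replicate 3 of shATF4 cells at 24 h stood apart by RN7SL RNA (0.0713%, against 0.0224% and 0.0241%). The 3 shATF4 libraries at 24 h had the highest RN7SL shares of the 16, and mitochondrial mRNA was higher at 24 h and 48 h than in the other untreated libraries; its part in the falls was not tested.

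In scramble cells the 10 enzymes were lower after 5-FU on the TMM scale, most of them by 24 h and all of them by 48 h. At 24 h 7 of the 10 enzymes were lower (edgeR quasi-likelihood test, adjusted p under 0.05) and none was higher, against 44.0% of all tested genes called and 22.2% called lower. At 48 h all 10 were lower, where 60.7% of tested genes were called and 30.0% called lower. The median log2 change of the 10 was -0.29 against -0.01 over all genes tested at 24 h, and -0.62 against 0.03 over all genes tested at 48 h. Their summed level was 2683 ± 57.9 CPM (SD, n = 3) untreated, 2142 ± 24.6 CPM (SD, n = 3) at 24 h and 1640.1 ± 11.9 CPM (SD, n = 2) at 48 h. In bulk RNA, less RNA per cell and a change in only some of the cells cannot be told apart. CPM values are relative to each library's TMM-scaled total. The TMM factors in scramble cells were 0.889 to 0.897 untreated, 1.026 to 1.042 at 24 h and 1.143 to 1.146 at 48 h. In shATF4 cells they were 0.914 to 0.922, 0.964 to 0.999 and 1.140 to 1.149. The smaller falls in scramble cells rest on this scaling: PAICS and ATIC at 24 h, and PPAT, CTPS1 and CAD at 48 h. Plain shares of counts were not tested. Upper-quartile scaling shifted the median of all genes at 48 h by 0.14 in scramble cells and 0.13 in shATF4 cells. The plot of levels in each library shows the 10 genes in both lines.

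**Figure D1:**
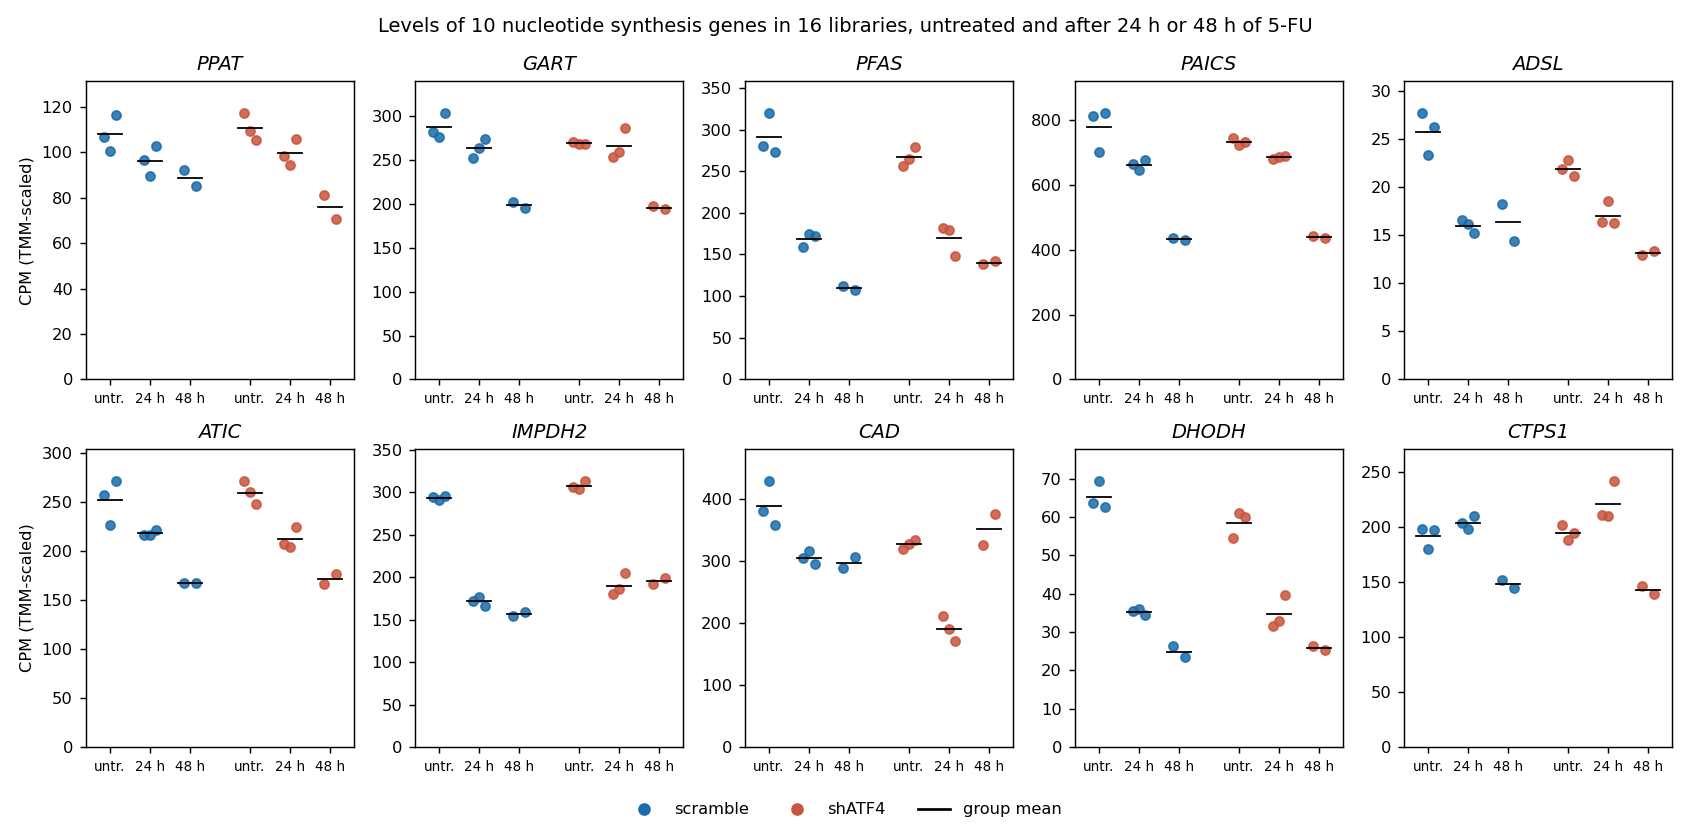
Level of each of the 10 genes (y axis, TMM-scaled CPM from 0, a separate scale per gene) in the 16 libraries, with scramble cells in blue, shATF4 cells in red and black bars at group means. IMPDH2, DHODH and PFAS were already lower at 24 h, as were PAICS, ADSL, ATIC and CAD in scramble cells. PAICS, GART, CTPS1, PFAS and DHODH were lowest at 48 h, and CAD in shATF4 cells was lowest at 24 h, from 172 to 211 CPM.

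At the entry of purine synthesis, PPAT (amidophosphoribosyltransferase, chr4:56393362-56435615, minus strand) changed least of the 10 in scramble cells at 48 h. Its levels were 107, 101 and 117 CPM untreated, 96.7, 89.8 and 103 CPM at 24 h and 92.4 and 85.4 CPM at 48 h. The 24 h group overlapped the untreated group, and the 48 h group lay below it. The log2 change at 48 h was -0.28 ± 0.09 (SE, adjusted p = 0.00998). This fall was not called without scramble 48 h replicate 2 (-0.24, adjusted p = 0.0993) or under upper-quartile scaling (-0.14, adjusted p = 0.192). At 24 h the change was -0.16 ± 0.08 (SE, adjusted p = 0.103). It was called with the replicate number as a block (-0.16, adjusted p = 0.0487) and without both libraries that stand apart (-0.21, adjusted p = 0.0206). In shATF4 cells PPAT held 117, 109 and 106 CPM untreated, 98.6, 94.5 and 106 CPM at 24 h and 81.3 and 70.5 CPM at 48 h, and the 48 h change was -0.55 ± 0.09 (SE, adjusted p = 2.72e-05). Those 48 h libraries lay below every other library of the series for PPAT.

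PAICS (chr4:56435741-56464579, plus strand), the bifunctional carboxylase and synthetase that starts from the opposite side of the same region, had a larger log2 change at 48 h than its neighbour in both lines. In scramble cells PAICS stood at 812, 701 and 823 CPM untreated, 664, 646 and 676 CPM at 24 h and 436 and 429 CPM at 48 h. Most of the fall came after 24 h, and no 2 of the 3 groups overlapped. The log2 change was -0.23 ± 0.06 (SE, adjusted p = 0.00333) at 24 h and -0.85 ± 0.07 (SE, adjusted p = 1.28e-09) at 48 h, a 1.80-fold lower level. The shATF4 values were 744, 722 and 731 CPM, then 679.5, 686 and 691 CPM, then 442 and 436 CPM, and only the 48 h change of the 2 against untreated was called, at -0.74 ± 0.07 (SE, adjusted p = 1.20e-08).

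PPAT and PAICS were also set against each other within each library, where scaling plays no part. The log2 ratio of PPAT to PAICS counts in scramble cells was -2.93, -2.80 and -2.82 untreated, -2.78, -2.85 and -2.72 at 24 h and -2.24 and -2.33 at 48 h. The 48 h libraries lay above all others of the line. A test of all 5 treated against 3 untreated libraries gave a difference of 0.27 (exact permutation test, two-sided, p = 0.143, adjusted over 6 ratio tests 0.171). It pools the 48 h libraries with the 24 h ones, which overlapped the untreated, so it cannot decide on 48 h alone. The 48 h libraries were not tested by themselves. In shATF4 cells the ratio was -2.66, -2.72 and -2.79 untreated, -2.78, -2.86 and -2.70 at 24 h and -2.44 and -2.63 at 48 h, and the difference was 0.04 (exact permutation p = 0.750). The smallest p that these group sizes allow is 0.0357. A ratio shows unequal change and does not say which of the pair moved.

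GART (chr21:33503931-33543491, minus strand), which carries 3 activities of the route on 1 protein, changed late. Scramble cells had 283, 277 and 304 CPM untreated, 253, 264 and 274 CPM at 24 h and 202 and 196 CPM at 48 h. Only the 48 h change was called, at -0.53 ± 0.07 (SE, adjusted p = 1.57e-06). The 24 h change of -0.12 ± 0.06 (SE, adjusted p = 0.115) was called without both libraries that stand apart (-0.15, adjusted p = 0.0191). In shATF4 cells GART ranged from 254 to 287 CPM at 24 h, overlapping the untreated libraries, and fell at 48 h by 0.46 ± 0.07 (SE, adjusted p = 1.18e-05) on the log2 scale. GART shares 275 exonic bases (3.55% of its own) with SON on the opposite strand, and the sources used here do not give the strand setting of the counting.

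PFAS (chr17:8247618-8270491, plus strand), the amidotransferase of the fourth step, had the largest fall of the 10 in scramble cells at 48 h. Its levels were 279.9, 320.0 and 273 CPM untreated, 159, 175 and 172 CPM at 24 h and 112 and 107 CPM at 48 h. The groups did not overlap at any step. The log2 change was -0.79 ± 0.08 (SE, adjusted p = 8.90e-08) at 24 h and -1.41 ± 0.09 (SE, adjusted p = 4.85e-11) at 48 h, a 2.66-fold lower level. In shATF4 cells the values were 256, 265 and 279 CPM untreated, 182, 179.5 and 148 CPM at 24 h and 138 and 142 CPM at 48 h, for a 48 h change of -0.93 ± 0.09 (SE, adjusted p = 2.24e-08). Both shATF4 libraries at 48 h lay above both scramble libraries of that time.

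ADSL and ATIC complete the route to IMP. ADSL (chr22:40346500-40390463, plus strand), adenylosuccinate lyase, stood at 23.4 to 27.7 CPM in untreated scramble cells, and fell within 24 h to 15.2 to 16.6 CPM, a log2 change of -0.69 ± 0.10 (SE, adjusted p = 1.64e-05). At 48 h its change was -0.66 ± 0.12 (SE, adjusted p = 5.44e-05) in scramble cells and -0.74 ± 0.12 (SE, adjusted p = 1.83e-05) in shATF4 cells. The level of ADSL is uncertain, since 68.8% of its coding bases are also exons of AL022238.4 on the same strand. AL022238.4 had 0 to 5 counts, so reads from the shared exons were not credited to it in any number. The sources used here do not say whether such reads were left out or given to ADSL. If they were left out, the level of ADSL is too low. ATIC (chr2:215311817-215349773, plus strand), which carries the last pair of steps, went from 226 to 271 CPM untreated down to 167 CPM on average at 48 h, a log2 change of -0.59 ± 0.08 (SE, adjusted p = 1.42e-06). Its 24 h fall in scramble cells, -0.21 ± 0.07 (SE, adjusted p = 0.0188), was not called under upper-quartile scaling (-0.13, adjusted p = 0.120). It was also not called without scramble untreated replicate 1 (0.0665) or 3 (0.110) or scramble 24 h replicate 1 (0.0653) or 2 (0.0625), each an adjusted p. In shATF4 cells ATIC fell by 0.29 ± 0.07 at 24 h (SE, adjusted p = 0.00157) and by 0.60 ± 0.08 at 48 h (SE, adjusted p = 1.32e-06).

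IMPDH2 (chr3:49024325-49029408, minus strand), the inosine monophosphate dehydrogenase of growing cells, made most of its fall in the first 24 h. Scramble values were 295, 291 and 296 CPM untreated, 172, 176 and 167 CPM at 24 h and 154 and 159 CPM at 48 h. The log2 change was -0.78 ± 0.06 (SE, adjusted p = 2.29e-09) at 24 h and -0.91 ± 0.07 (SE, adjusted p = 4.05e-10) at 48 h. Between 24 h and 48 h it moved by -0.14 ± 0.07 (SE, adjusted p = 0.119), a fall that was called in the fit of only these groups (-0.13, adjusted p = 0.0293) and without both libraries that stand apart (-0.14, adjusted p = 0.0365). In shATF4 cells the values were 306, 304 and 313 CPM untreated, 179.9, 186 and 205 CPM at 24 h and 193 and 199 CPM at 48 h. The 2 treated times overlapped there, and the 48 h change against untreated was -0.65 ± 0.07 (SE, adjusted p = 5.63e-08).

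Its paralog IMPDH1, which catalyses the same reaction, had smaller changes. IMPDH1 changed by -0.39 ± 0.12 (SE, adjusted p = 0.00688) at 48 h in scramble cells and by -0.15 ± 0.12 (SE, adjusted p = 0.294) in shATF4 cells. The log2 ratio of IMPDH1 to IMPDH2 counts went from -1.63 ± 0.21 (SD, n = 3) untreated to -1.17 ± 0.07 (SD, n = 3) at 24 h and -1.10 ± 0.04 (SD, n = 2) at 48 h in scramble cells. All 5 treated libraries lay above all 3 untreated ones. The exact permutation p was 0.0357, the smallest possible, and 0.0714 after adjustment over 6 tests, so the difference did not pass. With these group sizes a ratio could pass only if most of the 6 tests reached that smallest p. No conclusion is drawn from its not passing. In shATF4 cells the treated libraries differed from the untreated by 0.42 (exact permutation p = 0.107, adjusted 0.161), and shATF4 24 h replicate 3 lay among the untreated libraries, at -1.87.

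On the pyrimidine side, DHODH (chr16:72008588-72027664, plus strand), the inner-membrane dehydrogenase, fell almost as far as PFAS. Scramble cells had 63.8, 69.4 and 62.5 CPM untreated, 35.5, 36.1 and 34.5 CPM at 24 h and 26.4 and 23.5 CPM at 48 h. Every library of a later time lay below every library of an earlier one. The log2 change was -0.88 ± 0.09 (SE, adjusted p = 7.50e-08) at 24 h and -1.39 ± 0.10 (SE, adjusted p = 3.24e-10) at 48 h, a 2.62-fold lower level. The shATF4 values of DHODH were 54.6, 61.0 and 59.9 CPM, 31.6, 32.8 and 39.8 CPM and 26.4 and 25.4 CPM in the same order of times, and its 48 h change there was -1.18 ± 0.10 (SE, adjusted p = 4.40e-09).

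CTPS1 (chr1:40979335-41012565, plus strand), a CTP synthase, did not fall at 24 h in either line. In scramble cells it stood at 199, 180.3 and 198 CPM untreated, 204, 199 and 210.0 CPM at 24 h and 152 and 145 CPM at 48 h, with log2 changes of 0.09 ± 0.07 (SE, adjusted p = 0.302) and -0.37 ± 0.08 (SE, adjusted p = 0.000237). In shATF4 cells it stood at 202, 189 and 195 CPM, 211, 210.2 and 242 CPM and 146 and 139.8 CPM, and the 24 h group lay above the untreated one. That rise, 0.18 ± 0.07 (SE, adjusted p = 0.0336), was the one call toward higher levels among the 10 against untreated cells. It was not called in 10 of the 16 fits that left out 1 library, in which the adjusted p reached 0.151 without shATF4 24 h replicate 3 (log2 change 0.11). The other 9 such libraries were shATF4 untreated replicates 2 and 3, both 48 h replicates of each line and the 3 scramble 24 h replicates. It was also not called with no filter on low counts (0.17, adjusted p = 0.115), in the fit of only the groups compared (0.17, adjusted p = 0.104) or without both libraries that stand apart (0.11, adjusted p = 0.101). At 48 h it changed by -0.45 ± 0.08 (SE, adjusted p = 3.65e-05). CTPS2, the second CTP synthase, was lower at both times, with changes of -0.34 ± 0.07 and -0.73 ± 0.07 on the log2 scale in scramble cells (SE, adjusted p = 0.000262 and 4.28e-08). The log2 ratio of CTPS2 to CTPS1 counts was -0.82 ± 0.04 (SD, n = 3) untreated and -1.25 ± 0.03 (SD, n = 3) at 24 h in scramble cells. Treated and untreated libraries did not overlap in either line, with an exact permutation p of 0.0357 in each and 0.0714 after adjustment.

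**Figure D2:**
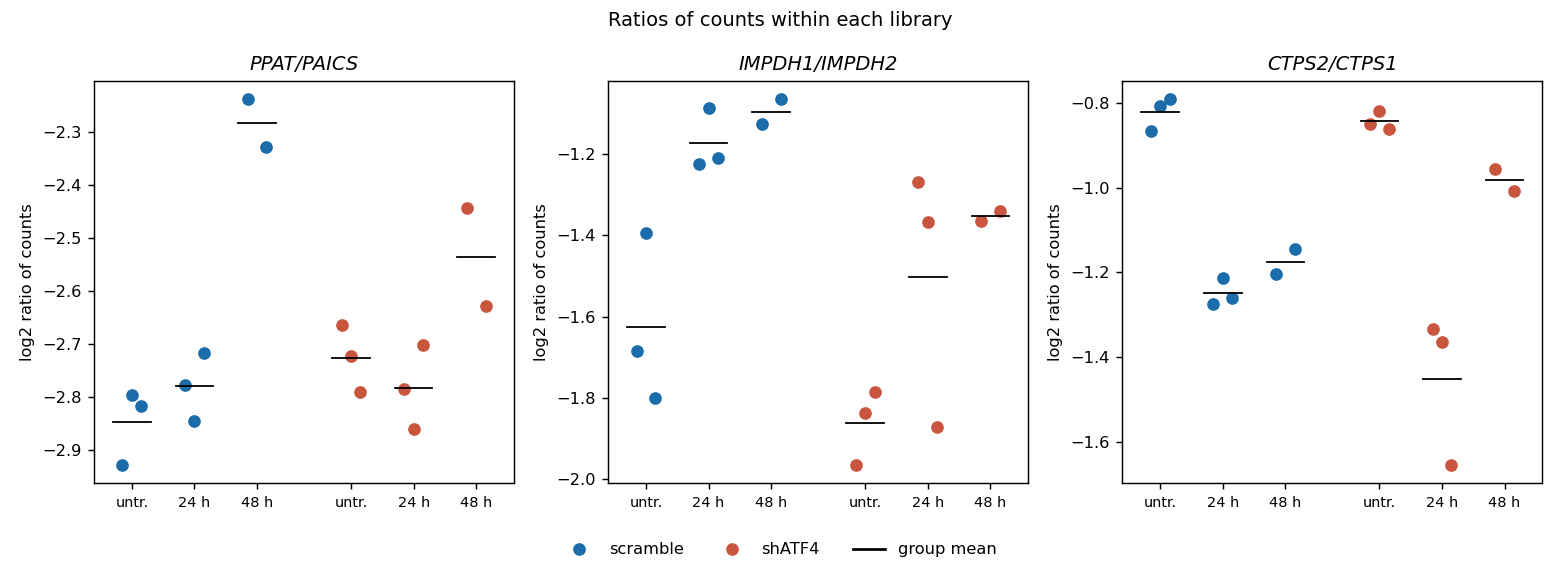
Log2 ratio of raw counts within each library (y axis) for PPAT to PAICS, IMPDH1 to IMPDH2 and CTPS2 to CTPS1, by line and time of 5-FU, with black bars at group means. In scramble cells the PPAT to PAICS ratio ran from -2.93 to -2.72 in untreated and 24 h libraries, and was -2.24 and -2.33 at 48 h.

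CAD (chr2:27217390-27243943, plus strand), the protein that carries the first 3 steps of pyrimidine synthesis, followed another course. In scramble cells it was lower at 24 h and little changed from there to 48 h: 380.4, 429 and 358 CPM untreated, 305, 316 and 296 CPM at 24 h and 289 and 306 CPM at 48 h. The 24 h and 48 h groups overlapped, and both lay below the untreated group. In shATF4 cells it was lowest at 24 h and near untreated levels at 48 h: 319.9, 328 and 334 CPM untreated, 211, 190.1 and 172 CPM at 24 h and 326 and 376 CPM at 48 h. The 24 h group lay below every other library of the series, and the 48 h group overlapped the untreated one.

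The log2 change of CAD in scramble cells was -0.35 ± 0.08 (SE, adjusted p = 0.00112) at 24 h and -0.39 ± 0.09 (SE, adjusted p = 0.000762) at 48 h. In shATF4 cells it was -0.78 ± 0.08 (SE, adjusted p = 1.26e-07) at 24 h and 0.10 ± 0.09 (SE, adjusted p = 0.339) at 48 h, and under upper-quartile scaling the 48 h value was called higher (0.23, adjusted p = 0.0365). From 24 h to 48 h CAD rose in shATF4 cells by 0.88 ± 0.09 (SE, adjusted p = 8.92e-08), while in scramble cells it moved by -0.04 ± 0.09 (SE, adjusted p = 0.769). Between the lines that step differed by 0.92 ± 0.12 (SE, adjusted p = 0.000147). It was called in 23 of 23 other settings, with values from 0.83 to 1.04. This contrast was added after the levels of CAD had been seen. UMPS, the enzyme that follows DHODH, was higher at 24 h in shATF4 cells than in untreated ones, by 0.45 ± 0.08 (SE, adjusted p = 0.000177), where CAD was lower.

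In shATF4 cells most of the 10 enzymes were also lower after 5-FU. At 24 h 6 of the 10 were lower and 1 was higher, against 44.4% of tested genes called, 21.2% lower and 23.2% higher. At 48 h 9 were lower, all but CAD, against 58.3% called and 28.7% lower. The median log2 change of the 10 was -0.33 against 0.03 over all genes tested at 24 h and -0.63 against 0.03 over all genes tested at 48 h. Their summed level went from 2549.6 ± 17.8 CPM (SD, n = 3) to 2088 ± 38.3 CPM (SD, n = 3) and 1751 ± 29.1 CPM (SD, n = 2). The 24 h and 48 h comparisons of a line share its untreated libraries, so their values for a gene are not independent.

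**Figure D3:**
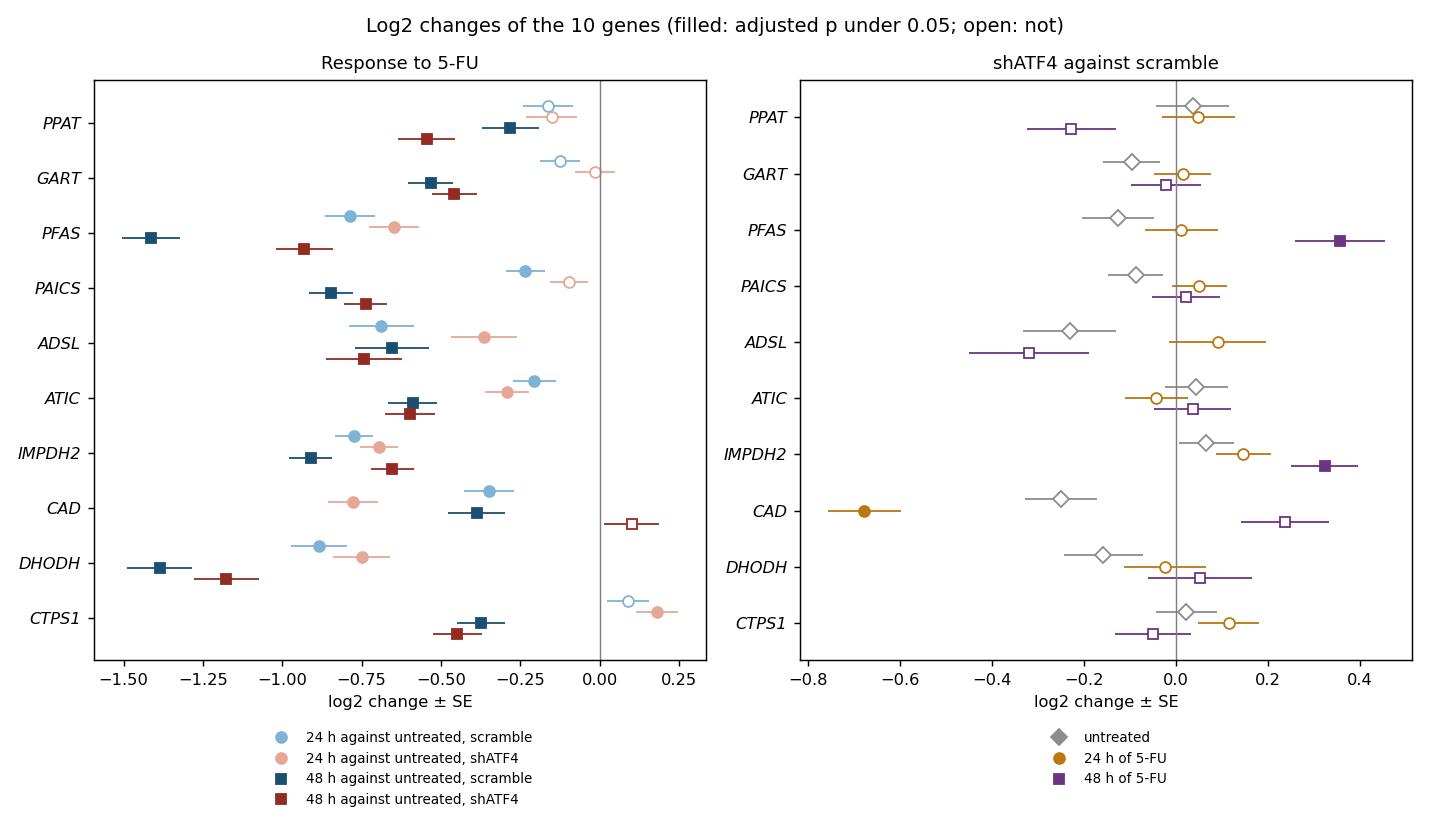
Log2 change ± SE (x axis) of the 10 genes under 5-FU against untreated cells of the same line (left) and in shATF4 against scramble cells at the same time (right). Filled points passed an adjusted p of 0.05 in edgeR's quasi-likelihood test, as all 10 did at 48 h in scramble cells, and most knockdown points were open and near 0.

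From 24 h to 48 h 6 of the 10 fell in scramble cells (38.3% of tested genes called, 19.5% lower), and in shATF4 cells 8 fell and 1, CAD, rose (48.2% called, 24.5% lower, 23.7% higher). In scramble cells CTPS1 and GART were called lower only in the second interval: CTPS1 changed by 0.09 by 24 h and -0.46 after it, and GART by -0.12 and -0.41. PAICS was called in both intervals, with -0.23 and -0.61, as was ATIC, with -0.21 and -0.38. ADSL and IMPDH2 were called only in the first in scramble cells, with -0.69 and 0.03 for ADSL and -0.78 and -0.14 for IMPDH2. The second value of ADSL ran from -0.17 to 0.17 without 1 library, and in shATF4 cells ADSL was called in both intervals, with -0.37 and -0.38. PFAS and DHODH fell in both intervals in scramble cells, by 0.79 and 0.63 for PFAS and 0.88 and 0.50 for DHODH. Differences between members in timing were not tested.

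In shATF4 cells the second step of PFAS, -0.28 ± 0.09 (SE, adjusted p = 0.0130), was not called under upper-quartile scaling (adjusted p = 0.0861), in the fit of only these groups (0.0808), or without shATF4 24 h replicate 1 (0.0578) or 2 (0.0501) or shATF4 48 h replicate 1 (0.0876) or 2 (0.0570). That of ADSL, -0.38 ± 0.12 (SE, adjusted p = 0.0130), was not called without shATF4 24 h replicate 2 (adjusted p = 0.0557) or shATF4 48 h replicate 1 (0.0836) or 2 (0.0543). The plot of the first day against the second sets the 10 genes side by side.

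**Figure D4:**
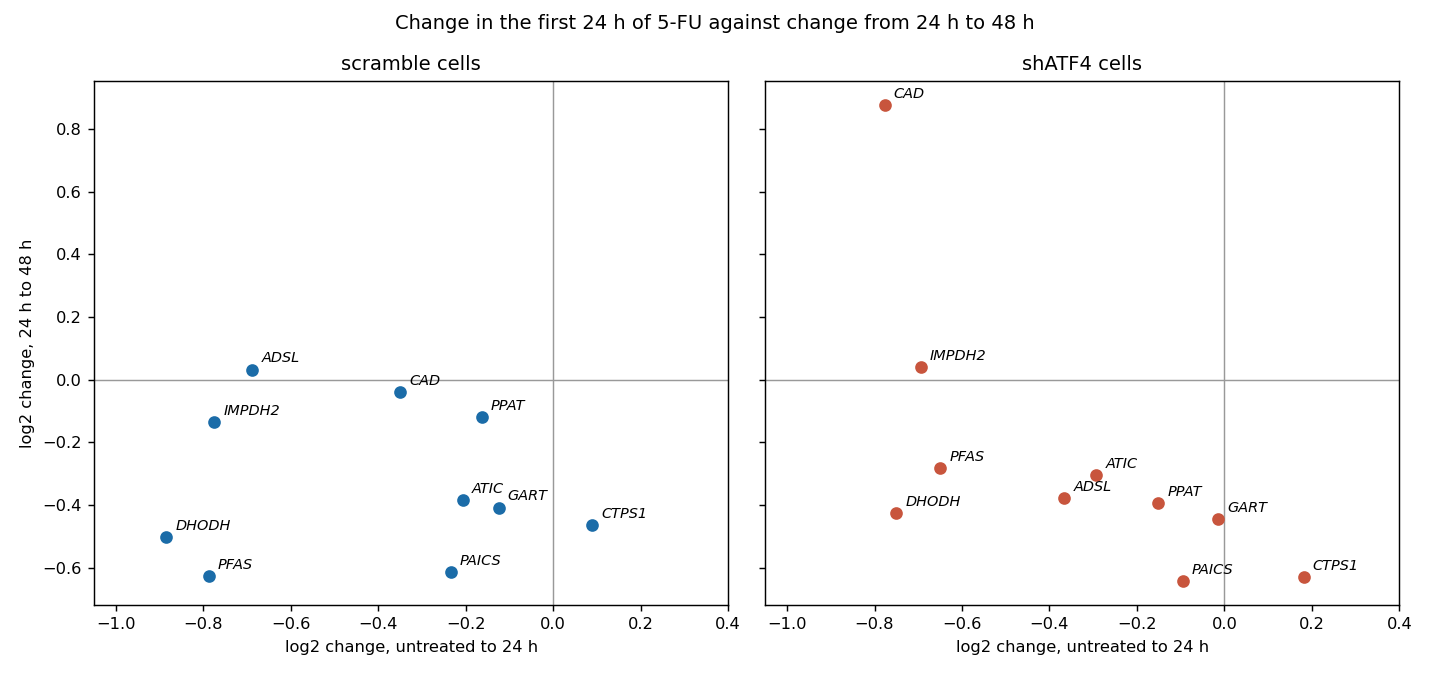
Log2 change from untreated to 24 h of 5-FU (x axis) against log2 change from 24 h to 48 h (y axis) for each of the 10 genes, in scramble cells (left) and shATF4 cells (right). CAD lies alone at the upper left in shATF4 cells (-0.78 and 0.88), and both axes share the 24 h libraries with opposite sign.

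Without drug, none of the 10 enzymes was called between shATF4 and scramble cells, against 2.92% of all tested genes. DESeq2 also called 0, and 2 of the 10, CAD and ADSL, had an unadjusted edgeR p under 0.05. CAD was the nearest, at -0.25 ± 0.08 (SE, adjusted p = 0.103), with every shATF4 library below every scramble library. ADSL changed by -0.23 ± 0.10 (SE, adjusted p = 0.298). For the other 8 members the log2 difference between the lines lay between -0.16 (DHODH) and 0.07 (IMPDH2). CAD was called with no filter on low counts (-0.25, adjusted p = 0.0351) and without shATF4 24 h replicate 3, which is not in this comparison but enters the shared estimate of spread (-0.25, adjusted p = 0.0231). PAICS was called lower without both libraries that stand apart (-0.16, adjusted p = 0.0335).

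At 24 h of 5-FU 1 of the 10, CAD, was lower in shATF4 than in scramble cells, against 20.4% of tested genes called and 9.89% lower. CAD stood at 306 ± 9.99 CPM (SD, n = 3) in scramble cells and 191 ± 19.7 CPM (SD, n = 3) in shATF4 cells, a log2 difference of -0.68 ± 0.08 (SE, adjusted p = 9.50e-06), or 1.60-fold lower. It was called in all 16 fits that left out 1 library, from -0.77 to -0.61. The 3 shATF4 libraries had the highest RN7SL shares of the series, and without replicate 3, the highest of them, the difference was -0.61 (adjusted p = 4.82e-06); the part of the remaining RN7SL difference was not tested. The other 9 lay between -0.04 (ATIC) and 0.15 (IMPDH2), and none passed the test.

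At 48 h 2 of the 10, IMPDH2 and PFAS, were higher in shATF4 than in scramble cells, against 9.45% of tested genes called and 3.92% higher. IMPDH2 was higher by 0.32 ± 0.07 (SE, adjusted p = 0.00704) and PFAS by 0.36 ± 0.10 (SE, adjusted p = 0.0234), and in both genes the 2 shATF4 libraries lay above the 2 scramble libraries. These calls rest on few libraries. PFAS was not called without scramble 48 h replicate 1 (adjusted p = 0.105) or 2 (0.185) or shATF4 48 h replicate 1 (0.0856) or 2 (0.131), and IMPDH2 not without scramble 48 h replicate 1 (0.0815) or shATF4 48 h replicate 2 (0.0596). CAD, lower in the knockdown at 24 h, was now at 0.24 ± 0.10 (SE, adjusted p = 0.133), and was called in 3 of 23 other settings: the fit of only these groups (0.24, adjusted p = 0.0300), without shATF4 24 h replicate 3 (0.24, adjusted p = 0.0450) and without both libraries that stand apart (0.24, adjusted p = 0.0125). ADSL was at -0.32 ± 0.13 and PPAT at -0.23 ± 0.10 (SE), without passing (adjusted p = 0.136 and 0.164).

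A difference in response between the lines was tested as an interaction term, written as the shATF4 change minus the scramble change. At 24 h 1 of the 10 was called, CAD, against 2.13% of tested genes (1.18% lower): -0.43 ± 0.11 (SE, adjusted p = 0.0480). At 48 h 2 were called, against 2.74% (1.30% higher): CAD with 0.49 ± 0.12 (SE, adjusted p = 0.0373) and PFAS with 0.48 ± 0.13 (SE, adjusted p = 0.0410). For the step from 24 h to 48 h CAD was the 1 called, against 8.56% (4.29% higher). The 24 h call of CAD held in 5 of the 16 fits that left out 1 library, with the value from -0.53 to -0.36 and adjusted p up to 0.115. It held without scramble untreated replicate 2, shATF4 24 h replicate 1 or 3, or either shATF4 48 h library, and was lost without any other. The 48 h call of CAD held in 5 of 16 (value 0.39 to 0.59, adjusted p up to 0.215), and that of PFAS in 4 of 16 (value 0.41 to 0.53, adjusted p up to 0.202). The held fits were those without scramble untreated replicate 3, shATF4 24 h replicate 1, shATF4 24 h replicate 2, shATF4 24 h replicate 3 and shATF4 48 h replicate 1 for CAD and those without scramble untreated replicate 3, shATF4 24 h replicate 1, shATF4 24 h replicate 2 and shATF4 24 h replicate 3 for PFAS. Under upper-quartile scaling the 48 h values were 0.47 for CAD (adjusted p = 0.0530) and 0.46 for PFAS (adjusted p = 0.0597), neither called, and in the fit of only the groups compared the 24 h value of CAD was -0.43 (adjusted p = 0.0709), not called. For the members not called, the interaction lay between -0.09 (ATIC) and 0.32 (ADSL) at 24 h and between -0.26 (PPAT) and 0.26 (IMPDH2) at 48 h. IMPDH2 was called at 48 h without both libraries that stand apart (0.26, adjusted p = 0.0341). For the step from 24 h to 48 h PFAS was called without shATF4 24 h replicate 1 (0.42, adjusted p = 0.0358), against 0.34 ± 0.13 (SE, adjusted p = 0.0921) with all libraries. Without both libraries that stand apart PFAS (0.25, adjusted p = 0.0464) and IMPDH2 (0.23, adjusted p = 0.0434) were called for it. The 24 h and 48 h interactions share the untreated libraries of both lines.

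Levels of different genes can be compared only per length, here as CPM per kilobase of the deposited gene length. For each member that length equalled its annotated exonic bases in GENCODE 29, from 2773 bases for IMPDH2 to 11517 for CTPS1. Which transcripts were expressed was not tested, so the order between genes holds only for these lengths. The SDs and overlaps given here describe spread among libraries and include no error in length. In untreated scramble cells IMPDH2 stood at 106 ± 0.865 and PAICS at 104 ± 8.99 (SD, n = 3), and their ranges overlapped at the top of the order. ATIC followed at 64.0 ± 5.89, then CAD at 46.2 ± 4.31 and PFAS at 45.0 ± 3.92, which overlapped, and GART at 37.1 ± 1.86. The lower end held PPAT (19.9 ± 1.48), CTPS1 (16.7 ± 0.899), DHODH (9.42 ± 0.534) and ADSL (3.63 ± 0.310), with no overlap between neighbours. After 48 h of 5-FU in scramble cells PAICS (57.5 ± 0.647) and IMPDH2 (56.4 ± 1.20) again overlapped at the top (SD, n = 2), and PFAS (16.9 ± 0.497) had come down to PPAT (16.3 ± 0.911). In shATF4 cells at 24 h CAD (22.7 ± 2.34, n = 3) stood in sixth place, below GART (34.4 ± 2.32) and overlapping PFAS and CTPS1. DHODH and ADSL were the lowest pair in all 6 groups. The place of ADSL is uncertain, since 68.8% of its coding bases are also exons of AL022238.4 on the same strand. Its level would be too low if reads from those bases were left out.

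Over the 16 libraries the pattern of CAD was the least like the rest. Likeness was taken as the root mean square difference of log2 CPM, centred on each gene's mean, over the 16 libraries, which share their groups, so it is a description with no test. CAD was the farthest member from 8 of the other 9, at up to 0.51 from DHODH, and its nearest member, IMPDH2, was 0.38 away. GART was the nearest member to ATIC (0.10), CTPS1 (0.11), PPAT (0.11) and PAICS (0.13), and PFAS and DHODH were nearest to each other (0.16). Among all tested genes, those nearest to PFAS were CARM1 (0.09) and EEF2 (0.09), those nearest to PAICS CUL1 and NAA50 (0.05 and 0.05), and those nearest to DHODH HNRNPR and EIF3F (0.09 and 0.11).

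Among other nucleotide synthesis enzymes 3 rose and 15 fell of 23 tested at 48 h in scramble cells, where 60.7% of all tested genes were called and 30.0% called lower, with a median log2 change of -0.26. GMPS, which makes GMP after IMPDH, changed by -0.63 ± 0.07 (SE, adjusted p = 2.61e-07), and PRPS1, which makes PRPP, by -0.51 ± 0.08 (SE, adjusted p = 2.22e-05). PRPS2, ADSS and UMPS changed by -0.43 ± 0.08, -0.23 ± 0.08 and -0.34 ± 0.09 (SE, adjusted p = 6.29e-05, 0.0208 and 0.00352). IMPDH1 and CTPS2, described above, were also lower. The 3 that rose were ADSSL1 (2.05 ± 0.16, adjusted p = 4.26e-10), AK1 (1.23 ± 0.13, adjusted p = 4.26e-08) and RRM2 (0.88 ± 0.09, adjusted p = 3.25e-08), a muscle-type adenylosuccinate synthase, an adenylate kinase and a subunit of ribonucleotide reductase. At 24 h in scramble cells 4 rose and 7 fell of 23 tested, where 44.0% of all genes were called. In shATF4 cells 5 rose and 7 fell of 23 tested at 24 h (44.4% of all genes called) and 6 rose and 11 fell of 23 tested at 48 h (58.3% called). The 24 h shares of the list called were near those of all genes.

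Salvage and uptake genes, which recycle bases and nucleosides, included 3 that rose and 6 that fell of 17 tested at 48 h, with a median of -0.15. That count is no larger a share than the 60.7% called among all genes, and no result about this list is read from it. ADA, adenosine deaminase, fell (-1.85 ± 0.09, adjusted p = 3.74e-13), as did APRT, which recycles adenine (-1.27 ± 0.09, adjusted p = 3.11e-10). CDA, cytidine deaminase, rose (2.25 ± 0.16, adjusted p = 1.30e-10), and so did UPP1, uridine phosphorylase (0.76 ± 0.08, adjusted p = 3.32e-08). Folate and glycine supply, which gives 1-carbon units to purine synthesis, included 4 that rose and 5 that fell of 13 tested, with a median of -0.15, a share called near that of all genes. Log2 changes on this list ran from -2.18 to 2.91, and the genes named next are those with its smallest p. MTHFD1L (-2.18 ± 0.08, adjusted p = 1.35e-14), SHMT2 (-1.61 ± 0.07, adjusted p = 1.46e-13) and MTHFD2 (-0.76 ± 0.09, adjusted p = 2.38e-07), 3 of the mitochondrial enzymes on it, fell. So did FPGS (-1.11 ± 0.12, adjusted p = 4.66e-08), which adds glutamates to folates.

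MYC transcript changed by -0.69 ± 0.06 (SE, adjusted p = 1.08e-08) at 24 h and -0.17 ± 0.07 (SE, adjusted p = 0.0284) at 48 h in scramble cells. In shATF4 cells it changed by -0.40 ± 0.06 and -0.21 ± 0.07 (SE, adjusted p = 1.57e-05 and 0.0103). Any part of MYC in the falls of the enzymes was not tested. At 48 h in scramble cells 60.7% of all tested genes were called and 30.0% called lower, with a median log2 change of 0.03 over all of them. Of the MYC and MAX network 5 rose and 4 fell of 12 tested there, and no result about the network is read from that count. Among them MXD1, a MAX partner that opposes MYC, rose (0.98 ± 0.10, adjusted p = 5.82e-08). Of 15 MYC nucleolar and growth genes 14 fell and 0 rose, with a median of -0.98, among them NPM1 (-1.67 ± 0.09, adjusted p = 4.23e-12), NCL (-1.26 ± 0.08, adjusted p = 2.55e-11) and HSPD1 (-1.50 ± 0.07, adjusted p = 7.15e-13). CCND2, a cyclin on that list, had a log2 change of 1.09 (adjusted p = 0.136). None of these lists was tested as a set.

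At 24 h of 5-FU, where 20.4% of all genes were called between the lines, MYC was higher in shATF4 than in scramble cells, by 0.38 ± 0.06 (SE, adjusted p = 0.000160). Of the nucleolar and growth genes 7 were higher and 0 lower of 15, among them CCND2 (2.45 ± 0.45, adjusted p = 0.000751) and NCL (0.40 ± 0.07, adjusted p = 0.000347). CCND2 was also the 1 gene of that list called without drug (2.59 ± 0.49, adjusted p = 0.00335). Of the other nucleotide synthesis enzymes 4 were higher and 5 lower of 23, with log2 differences for NME1 (0.43), GUK1 (0.41), UMPS (0.37) and AK1 (0.32) and for ADSSL1 (-0.91), AK4 (-0.41), ADSS (-0.36), DUT (-0.32) and PRPSAP1 (-0.24). Of the salvage genes 4 were higher and 4 lower of 17, namely APRT (0.49), SLC29A2 (0.35), DGUOK (0.32) and UCK2 (0.24) and ADA (-0.52), CDA (-0.42), UPP1 (-0.35) and TK2 (-0.31). MTHFD1L was the 1 folate gene called (-0.45 ± 0.07, adjusted p = 0.000119), and of the MYC and MAX network MYC and MXD1 (0.42) were higher and MXD3 (-0.54) lower.

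In the knockdown comparison at 48 h, where IMPDH2 and PFAS were higher, 1 salvage gene was higher and 1 lower of 17 tested: APRT (0.32 ± 0.10, adjusted p = 0.0495) and CDA (-1.01 ± 0.16, adjusted p = 0.000312). Of the folate and glycine genes 2 were higher and 0 lower of 13, namely SHMT1 (0.40 ± 0.08, adjusted p = 0.00370) and SHMT2 (0.34 ± 0.07, adjusted p = 0.00587), the cytosolic and mitochondrial serine hydroxymethyltransferases. In the MYC and MAX network 2 were higher and 2 lower of 12, the lower ones MXD1 (-0.69 ± 0.11, adjusted p = 0.000388) and MLX (-0.38 ± 0.09, adjusted p = 0.00918) and the higher ones MLXIPL (0.61 ± 0.16, adjusted p = 0.0177) and MXD4 (0.35 ± 0.11, adjusted p = 0.0442). Of the nucleolar and growth genes 3 were higher and 0 lower of 15, namely CCND2 (2.76 ± 0.45, adjusted p = 0.000379), HSPD1 (0.34 ± 0.08, adjusted p = 0.00721) and BOP1 (0.43 ± 0.12, adjusted p = 0.0219). PRPS2 was the 1 gene called of 23 other nucleotide synthesis enzymes (0.50 ± 0.08, adjusted p = 0.000528). Over all genes 9.45% were called.

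**Figure D5:**
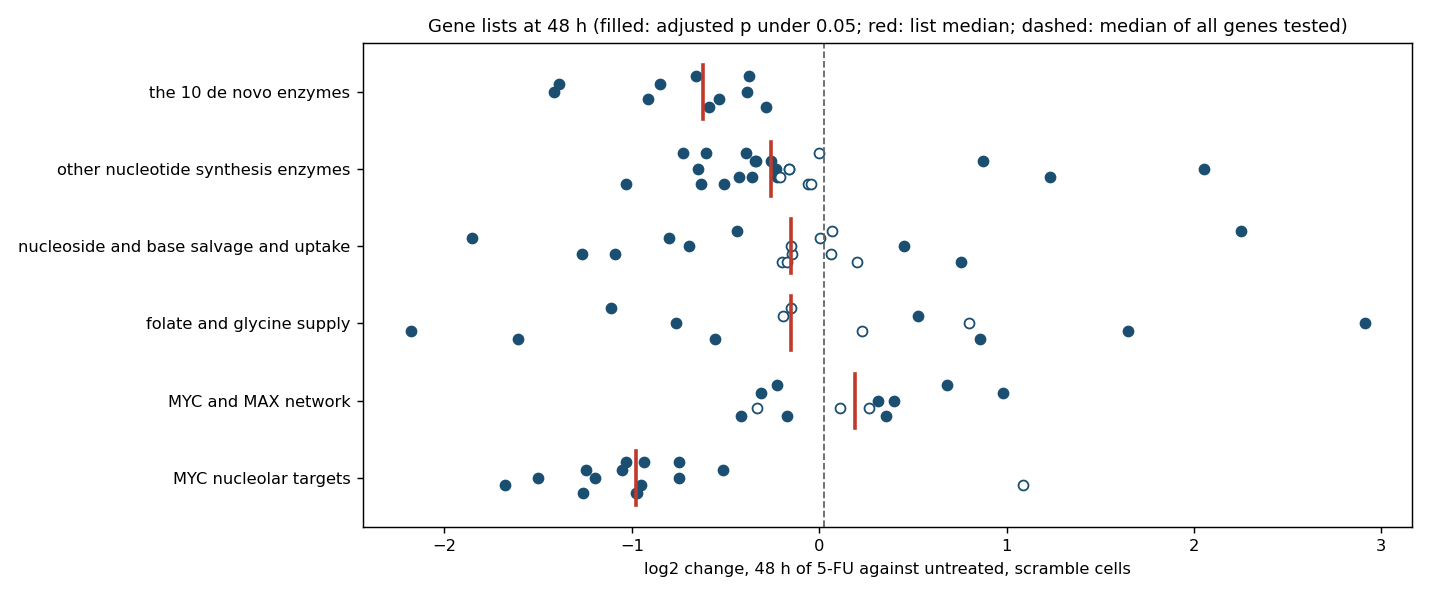
Log2 change at 48 h of 5-FU against untreated scramble cells (x axis) for each tested gene of 6 lists (y axis), with filled points past an adjusted p of 0.05, red bars at list medians and a dashed line at the median of all tested genes. The 10 de novo enzymes lie between -1.41 and -0.28, all below 0, while the salvage and folate lists spread to both sides.

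In the authors' deposited table of differential tests, 67 of 70 pairs of member and comparison fell on the same side of an adjusted p of 0.05 as here. The 3 that differed were CAD in untreated knockdown cells (-0.24, adjusted p = 0.0384 in the authors' deposited table), CAD in the knockdown at 48 h (0.24, 0.0236) and CTPS1 at 24 h in shATF4 cells (0.17, 0.150). The authors' deposited table therefore calls CAD lower in the knockdown without drug and higher in it at 48 h, and does not call the rise of CTPS1.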

How the data were processed

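RNA-seq read counts per gene were deposited by the authors for 16 libraries in 6 groups, with FPKM values beside them and a table of log2 fold changes and p-values from their own differential tests. Per the submitters' processing notes, featureCounts 1.5.0-p3 and the build GRCh38 (hg38) were used; no source used here names the aligner, the annotation release or the strand setting. Gene starts, ends and strands in the deposited table match GENCODE 29 for 58724 of 58735 genes, and exon overlaps were taken from that release. The deposited FPKM values served only as a check of scale. The treatment tag of the 48 h libraries reads 24 h, while their titles and the series design say 48 h, which was used.

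Counts were tested genome-wide as deposited. Genes were filtered by edgeR's filterByExpr (17309 kept, holding 99.9% of counts) and scaled by TMM, and 1 model over the 6 groups was fitted with edgeR 4.0.16 (glmQLFit and glmQLFTest, R 4.3.3, 10 residual degrees of freedom, common biological coefficient of variation 0.0847). P-values were adjusted by Benjamini and Hochberg over all tested genes, and called means an adjusted p under 0.05. SEs are those of the log2 change, taken from the quasi-likelihood F statistic. Ratios of 2 genes in a library were tested by exact permutation, two-sided, with Benjamini-Hochberg adjustment over 6 tests. DESeq2 1.42.0 was an alternative.

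The 10 members and all gene lists were chosen with earlier results of these data known, and the contrast from 24 h to 48 h between the lines was added after seeing CAD. Genes named beside the members were PRPS1, PRPS2, IMPDH1, CTPS2, GMPS, ADSS, UMPS, MYC and ATF4, and of each list up to 4 with the smallest p at 48 h in scramble cells and up to 2 in the knockdown at 48 h, with a mean of at least 1 CPM. CCND2 and the genes named for the knockdown at 24 h, MLXIPL and MXD4 were chosen after their values were seen. For likeness, the 2 genes nearest each member were taken, on log2 CPM with 0.1 added. Those nearest to CAD are not reported here. The fit was tested on simulated data. The labels describe PCR amplification and mention no molecular identifiers, so counting error understates the error of a library.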

Additional observations from a re-analysis of the deposited data

Results flagged for a closer look

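The response of CAD to 5-FU differed between shATF4 and scramble cells by an interaction test in edgeR's quasi-likelihood fit, written as the shATF4 change minus the scramble change. At 24 h the difference was -0.43 ± 0.11 (SE, adjusted p = 0.0480), at 48 h it was 0.49 ± 0.12 (SE, adjusted p = 0.0373), and for the step from 24 h to 48 h it was 0.92 ± 0.12 (SE, adjusted p = 0.000147). CAD was lower in 3 of 3 shATF4 libraries than in any scramble library at 24 h and higher in 2 of 2 at 48 h. The direct difference between the lines at 48 h was not called (0.24 ± 0.10, SE, adjusted p = 0.133 in the same fit). The interaction values at 24 h and 48 h passed narrowly and were lost in most fits without 1 library. The value for the step held in all of them, but that contrast was added after the levels of CAD had been seen. Its adjusted p does not allow for that choice.

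The response of PFAS at 48 h differed between the lines by the same test, 0.48 ± 0.13 (SE, adjusted p = 0.0410), since PFAS fell by 1.41 in scramble cells and by 0.93 in shATF4 cells on the log2 scale. It passed narrowly and was lost in most fits without 1 library.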

How the results depend on the processing

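Upper-quartile scaling, DESeq2 and its size factors, no filter on low counts, the replicate number as a block, a fit of only the groups compared, and leaving out each library in turn or both libraries that stand apart were tried. The counts of members called under 5-FU against untreated stayed within 1.5 times their reported counts under every setting run. Of the members called, the knockdown without drug had 0 as reported, 1 with no filter, 1 without both libraries that stand apart, and 0 to 1 without 1 library; the knockdown at 48 h had 2, and 0 to 3 without 1 library. The interaction at 24 h had 1, and 0 in the fit of only the groups compared and 0 to 1 without 1 library. That at 48 h had 2, and 0 with upper-quartile scaling and 0 to 2 without 1 library. That from 24 h to 48 h had 1, and 3 without both libraries that stand apart and 1 to 2 without 1 library. Values that turned their sign were near 0 and not called in either fit: without both libraries that stand apart PPAT knockdown untreated (-0.011), ATIC knockdown untreated (-0.027), CTPS1 knockdown untreated (-0.021), GART knockdown at 24 h (-0.042), DHODH interaction at 24 h (-0.025), ATIC interaction at 48 h (0.063) and GART interaction from 24 h to 48 h (0.020), and with median-of-ratios size factors GART knockdown at 24 h (-0.0021) and PFAS knockdown at 24 h (-0.0047), and with upper-quartile scaling GART knockdown at 24 h (-0.0011), PFAS knockdown at 24 h (-0.0041), GART 5-FU 24 h in shATF4 (0.026), CAD 48 h against 24 h in scramble (0.033) and PPAT interaction at 24 h (-0.023), and with DESeq2 GART knockdown at 24 h (-0.0019) and PFAS knockdown at 24 h (-0.0047). Without 1 library the values of these members crossed 0, none of them called: PPAT knockdown untreated (-0.012 to 0.10), ATIC knockdown untreated (-0.027 to 0.10), CTPS1 knockdown untreated (-0.021 to 0.048), PPAT knockdown at 24 h (-0.016 to 0.087), GART knockdown at 24 h (-0.042 to 0.036), PFAS knockdown at 24 h (-0.060 to 0.10), DHODH knockdown at 24 h (-0.13 to 0.022), GART knockdown at 48 h (-0.042 to 0.010), DHODH knockdown at 48 h (-0.025 to 0.15), GART 5-FU 24 h in shATF4 (-0.070 to 0.0078), CAD 5-FU 48 h in shATF4 (-0.017 to 0.19), ADSL 48 h against 24 h in scramble (-0.17 to 0.17), PPAT interaction at 24 h (-0.055 to 0.061), ADSL interaction at 48 h (-0.24 to 0.10), ATIC interaction at 48 h (-0.066 to 0.064), GART interaction from 24 h to 48 h (-0.058 to 0.020) and PAICS interaction from 24 h to 48 h (-0.029 to 0.0085). Same-numbered libraries of different groups had correlations of deviations with a median of 0.02 (1 of 36 over 0.1), so the numbers were not taken to pair libraries. Of 16 libraries, 7 had their highest correlation with a library of their own number. The replicate block took the members called at 24 h in scramble cells from 7 to 8, by PPAT (-0.16, adjusted p = 0.0487), and changed no other call. The lowest count of a member in a library was 235, and the 2 libraries a group at 48 h limit the precision there.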
